A study of Mus musculus with 38 samples.

Results

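The genes described here are 32 markers of the layers and classes of cortical glutamatergic neurons, taken as a list of names from the 57010 gene IDs of a count table of mouse medial prefrontal cortex. They comprise 9 genes of the upper layers (Cux1, Cux2, Rasgrf2, Calb1, Rorb, Rspo1, Otof, Wfs1 and Lypd1), 8 of layer 5 (Fezf2, Bcl11b, Etv1, Crym, Pcp4, Deptor, Tshz2 and Pou3f1), 12 of layer 6 and 6b (Foxp1, Foxp2, Tle4, Syt6, Rprm, Hs3st4, Sulf1, Sema3e, Nxph4, Cplx3, Tbr1 and Sox5) and 3 vesicular transporters (Slc17a7, Slc17a6 and Slc30a3). Each symbol matched 1 ID, and all 32 passed the filter on low counts in every fit.

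Bulk RNA sequencing was done on 38 libraries. Mutant mice were SSTCre:γ2f/f, in which a floxed allele can be recombined by a Cre expressed in somatostatin neurons, an inhibitory cell class, and control mice carried SSTCre alone, so both genotypes share the Cre allele. Each genotype was studied after 21 days of chronic variable stress (CVS), with tissue taken 24 h after the last stressor, or without stress (NS). Among males there were 4 mutant CVS, 3 mutant NS, 6 control CVS and 5 control NS libraries, and among females 5 in each of the same groups. The age of the mice is not given in the sources used here. The study asks, by its title, how GABAergic control relates to resilience to chronic stress.

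Glutamatergic neurons of the cortex are stacked in layers that differ in where their axons go. Upper-layer neurons connect areas of cortex, layer 5 holds neurons that project to the brainstem, spinal cord and striatum, and layer 6 holds neurons that project to the thalamus, with the thin layer 6b beneath. Transcription factors such as Fezf2, Bcl11b, Tbr1 and Cux2 set these identities during development and many stay on in the adult, so in a piece of cortex their RNA also tracks how much of each layer was taken. In bulk tissue, fewer cells of a type and less RNA per cell cannot be told apart.

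The libraries held 17.6 to 27.5 M counts (M, counts in units of 1000000), with a median of 20.5 M. Each library carries its own code in the labels, and p-values measure the spread between these libraries. A pair of transcripts that separated the genotypes in earlier results of these data were also read. Gm12663, a predicted gene, was at 1.12 to 2.86 CPM (counts scaled to 1000000 per library) in 6 of 7 male mutants but 0 in male mutant CVS replicate 1, against 0 to 0.102 CPM in male controls. Ccng1, a cyclin, was at 84.2 to 99.6 CPM in all 7 male mutants (91.5 in that replicate) against 71.0 to 80.7 CPM in male controls. Cdhr1, a marker of olfactory bulb projection neurons, stood at 25.2 and 26.4 CPM in male mutant NS replicates 2 and 3 and 15.9 CPM in male control CVS replicate 1, against 1.73 to 4.05 CPM in the other males. Of 5 bulb markers 3 could be tested between unstressed male mutants and controls. In mutants 1 of these was higher (2.71 on the log2 scale) and 2 were lower (median of the 3, -0.229). Whether these libraries held bulb tissue was not tested. Genotype calls made by edgeR that use these 4 male libraries are given with and without them. Among the defining markers of cortical glutamatergic neurons, Slc17a7 had at least 1712 CPM and Tbr1 at least 135 CPM in every library.

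Levels of the 32 genes spanned a wide range. Per kilobase of exon, Slc17a7, which encodes the vesicular glutamate transporter of cortical neurons, was the most abundant at 345 CPM per kb, followed by Wfs1 (44.4), an endoplasmic reticulum protein, and Slc30a3 (43.9), the zinc transporter of synaptic vesicles. Tbr1 (29.0) was the highest of the layer 6 transcription factors on this scale, against 2.73 for Sox5 and 0.540 for Foxp2. The lowest was Nxph4, a neurexin ligand of layer 6b, with 0.540 CPM per kb and 4 to 53 counts per library. Lengths came from a GRCm38 annotation, whereas the counts were made on GRCm39.

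Averaged over sex and stress, mutants had more Lypd1 and Crym RNA and less Pou3f1 RNA than controls, and no other gene of the 32 passed the test. Of the 17671 genes fitted over all 38 libraries, 1.09% passed an adjusted p of 0.05 for genotype (quasi-likelihood test of edgeR, adjusted by Benjamini-Hochberg over all genes tested, as for every adjusted p of a difference below), and of the 32 genes 2 were higher and 1 was lower. At an unadjusted p of 0.05 the counts were 5 higher and 4 lower, against 11.2% of all genes. The median log2 fold change was 0.037 over the 32 genes and -9.43e-05 over all genes, with 21 positive and 11 negative among the 32. Among all genes 49.9% of estimates were positive. All 3 calls were lost, and none was gained, without the 3 male libraries with high Cdhr1, a run that leaves 1 unstressed male mutant library. A smaller share of all genes passed in that run too. Its estimates were 0.20 ± 0.055 for Lypd1, 0.21 ± 0.062 for Crym and -0.19 ± 0.053 for Pou3f1. With all libraries they were 0.23 ± 0.047, 0.25 ± 0.052 and -0.19 ± 0.043. Without male mutant CVS replicate 1 all 3 passed, at adjusted p 0.0174, 0.0158 and 0.0221 in the same order.

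**Figure D1:**
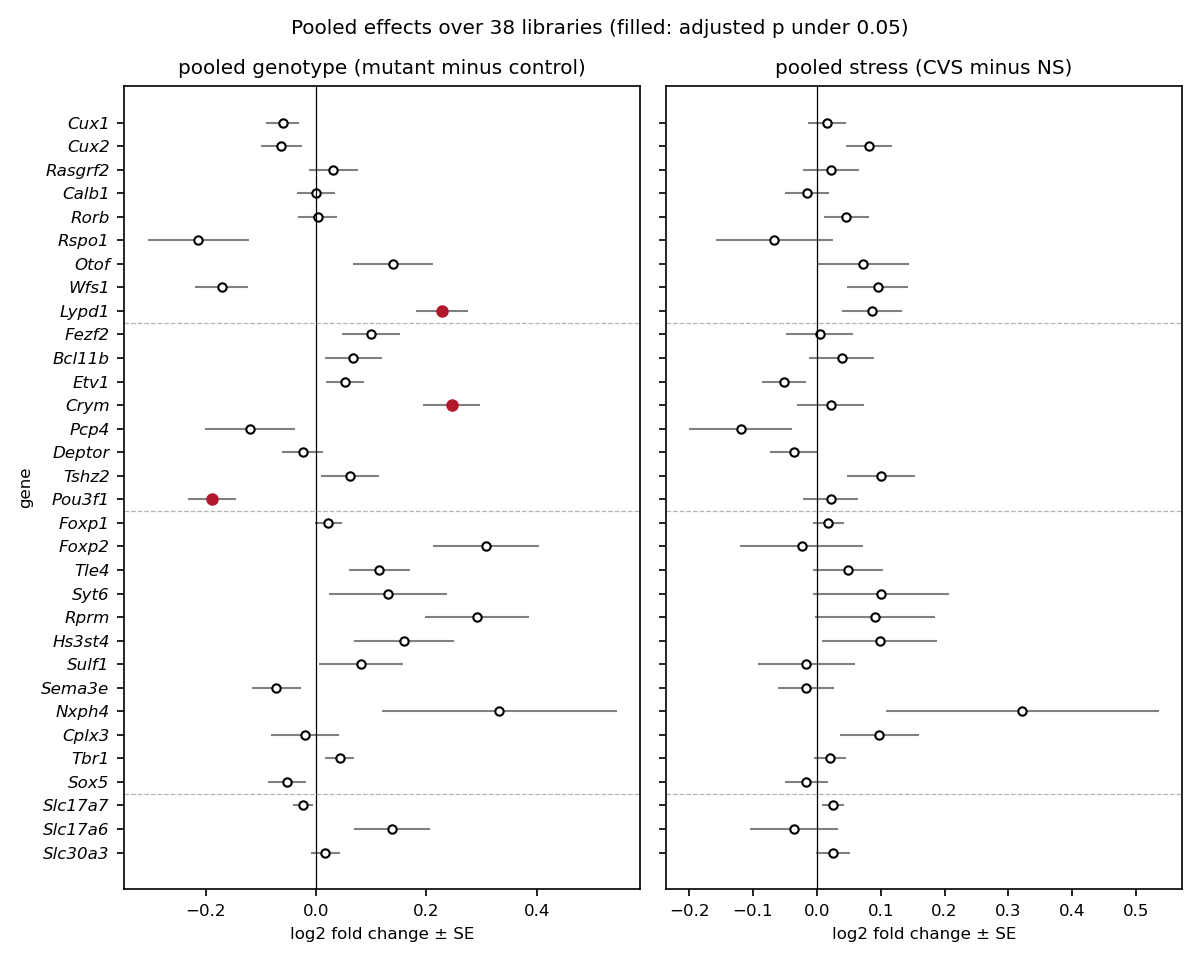
Log2 fold change ± SE of each of the 32 genes over 38 libraries, mutant minus control on the left and CVS minus NS on the right, ordered by layer from the upper layers down to the transporters. Filled points mark an adjusted p under 0.05: Lypd1 (0.23), Crym (0.25) and Pou3f1 (-0.19) for genotype, and none for stress.

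Among the 9 upper-layer genes, 5 had positive and 4 negative genotype estimates with a median of 0.000351, and only Lypd1 passed. Lypd1 encodes a membrane-anchored protein of the Ly6 family that modulates nicotinic acetylcholine receptors (Ensembl ENSMUSG00000026344; chromosome 1). Stressed male mutants had 161, 143, 146 and 141 CPM of Lypd1, against 107 at the lowest, 112 at the median and 121 at the highest in the 6 stressed male controls. These groups did not overlap. Unstressed male mutants had 130.5, 134 and 160.3 CPM, against 106, 101, 114, 139 and 97.5 in unstressed male controls, of which replicate 4 stood among the mutants. In females the values were 158, 167, 139, 192 and 159 CPM in mutant CVS, against 165, 138, 163, 178 and 137 in control CVS. Unstressed females had 144, 133, 165, 147 and 171 CPM in mutants, against 151, 133, 136, 146 and 135 in controls, and the female groups overlapped under both conditions.

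The genotype difference of Lypd1 over all libraries was 0.23 ± 0.047, adjusted p 0.00872 on the log2 scale. It was 0.37 (adjusted p 0.0274) in males alone, where 0.116% of 17212 genes passed, and 0.089 (adjusted p 0.679) in females alone. The male value was 0.32 (adjusted p 0.232) without the 3 libraries with high Cdhr1 and 0.35 (adjusted p 0.0483) without male mutant CVS replicate 1, runs added after seeing the data. The sex difference itself, female minus male, was -0.28 ± 0.094, unadjusted p 0.00558, adjusted p 0.436, which did not pass. Males and females carry codes of separate animal series. In this contrast, and in every sex difference below, sex and series cannot be told apart. Within stressed males Lypd1 differed by 0.39 ± 0.085, adjusted p 0.174, and DESeq2 called it there at adjusted p 0.00276. An annotated exon of Gpr39 overlaps Lypd1 on the opposite strand, and whether the counting used strand is not given in the sources used here.

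Wfs1, Rspo1 and Cux1 had lower estimates in mutants that did not pass. For Wfs1, which marks superficial neurons in rodents, the difference was -0.17 ± 0.048, adjusted p 0.0792, with 155 ± 14.2 CPM in unstressed female mutants and 180.2 ± 17.4 CPM in unstressed female controls (n = 5 each). DESeq2 called Wfs1 over all libraries, at -0.17 (adjusted p 0.0266), and the number of all genes passing in that run is not given here. Without the low-count filter edgeR called Wfs1 in unstressed females, at -0.22 (adjusted p 0.0134), where 118 genes of the whole table passed. Rspo1, a secreted enhancer of Wnt signalling, had 5.27, 5.27, 4.42, 4.44 and 3.16 CPM in unstressed female mutants, against 6.77, 5.44, 6.71, 6.57 and 6.45 in unstressed female controls. Every one of those mutants lay below every control, yet the difference of -0.51 ± 0.15, adjusted p 0.243 did not pass. Cux1 and Cux2 encode homeodomain factors of upper-layer neurons, with genotype differences of -0.060 ± 0.03, adjusted p 0.437 and -0.063 ± 0.036, adjusted p 0.56. Rasgrf2, a Ras exchange factor (0.031), Calb1, the calcium buffer calbindin (0.000351), and Rorb, the retinoid-related factor of layer 4 neurons (0.0027), were close to 0 on the log2 scale, and Otof, the calcium sensor otoferlin, was at 0.14 ± 0.072, adjusted p 0.483.

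Among the 8 layer 5 genes Crym rose and Pou3f1 fell in mutants, with a median of 0.056 over the group. Crym encodes mu-crystallin, a protein that binds thyroid hormone in the cytosol (Ensembl ENSMUSG00000030905; chromosome 7). Stressed male mutants had 99.3, 113, 98.0 and 96.2 CPM, against 65.8 at the lowest, 74.4 at the median and 90.4 at the highest in the 6 stressed male controls. No mutant overlapped a control there. Unstressed male mutants had 85.9, 93.4 and 106 CPM, against 78, 77.3, 84.5, 84.8 and 75.9 in unstressed male controls, again without overlap. Stressed female mutants had 100.4, 104, 92.4, 107 and 116 CPM, against 125, 102, 85.7, 98.9 and 96.4 in stressed female controls. Unstressed females had 115, 102, 122, 98.4 and 111 CPM in mutants, against 112, 82.1, 86.5, 100.2 and 74.8 in controls, and in females both pairs of groups overlapped.

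Over all libraries Crym differed by 0.25 ± 0.052, adjusted p 0.0111, with 0.34 (adjusted p 0.0164) in males alone and 0.15 (adjusted p 0.529) in females alone. In males it was 0.26 (adjusted p 0.31) without the 3 libraries with high Cdhr1 and 0.35 (adjusted p 0.025) without male mutant CVS replicate 1. The sex difference was -0.20 ± 0.1, unadjusted p 0.0618, adjusted p 0.654 and did not pass. Crym was the only gene of the 32 to pass among stressed males, at 0.44 ± 0.078, adjusted p 0.042, where 0.0523% of 17212 genes passed. In stressed males 2 of the 32 genes, Crym and Lypd1, had groups that did not overlap, against 1.45% of all genes. That call of Crym held in 4 of 18 runs that each left out 1 male library (without control NS replicate 4, control CVS replicate 2, or mutant NS replicate 1 or 3), and the highest adjusted p over the runs was 0.164. It was 0.0834 without male mutant CVS replicate 1, at a log2 fold change of 0.45, and 0.0598 without the 3 libraries with high Cdhr1, at 0.43. In the 8-group model of all libraries the difference was again 0.44, with an adjusted p of 0.124.

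Pou3f1 encodes a POU-domain factor of layer 5 projection neurons (Ensembl ENSMUSG00000090125; chromosome 4). Unstressed female mutants had 37.9, 36.4, 45.3, 47.6 and 43.7 CPM, against 50.3, 50.4, 56.4, 55.9 and 48.9 in unstressed female controls. The mutants all lay below the controls. Stressed females had 44.7, 41.7, 49.4, 42.3 and 47.4 CPM in mutants, against 47.3, 51.5, 48.3, 45.6 and 52.3 in controls, with overlap. Stressed males had 36.4, 37.3, 37.1 and 32 CPM in mutants, against 35.4 at the lowest, 37.2 at the median and 46.0 at the highest in the 6 controls. Unstressed males had 34.5, 36.6 and 31.8 CPM in mutants, against 38.6, 46.1, 42.5, 33.3 and 33.6 in controls, and both male pairs of groups overlapped.

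In unstressed females Pou3f1 fell by 0.31 on the log2 scale in mutants (SE 0.064, adjusted p 0.0302), the only gene of the 32 to pass there, where 0.128% of 16435 genes passed. Groups that did not overlap were found for Pou3f1 and Rspo1, 2 of 32, against 1.76% of all genes. The call was lost without female control NS replicate 3 or 4 or without female mutant NS replicate 1, 2 or 5, with adjusted p up to 0.125. It was also lost in the 8-group model, at the same difference of -0.31 and an adjusted p of 0.154. Over all libraries the difference was -0.19 ± 0.043, adjusted p 0.0168. In females alone it was -0.22 (adjusted p 0.0149; 0.584% of 16435 genes passed) and in males alone -0.16 (adjusted p 0.515), with a sex difference of -0.059 ± 0.086, adjusted p 0.914. The pooled call was lost without male mutant NS replicate 3 (adjusted p 0.0624). A predicted gene, Gm2164, overlaps an exon of Pou3f1 on the opposite strand.

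**Figure D2:**
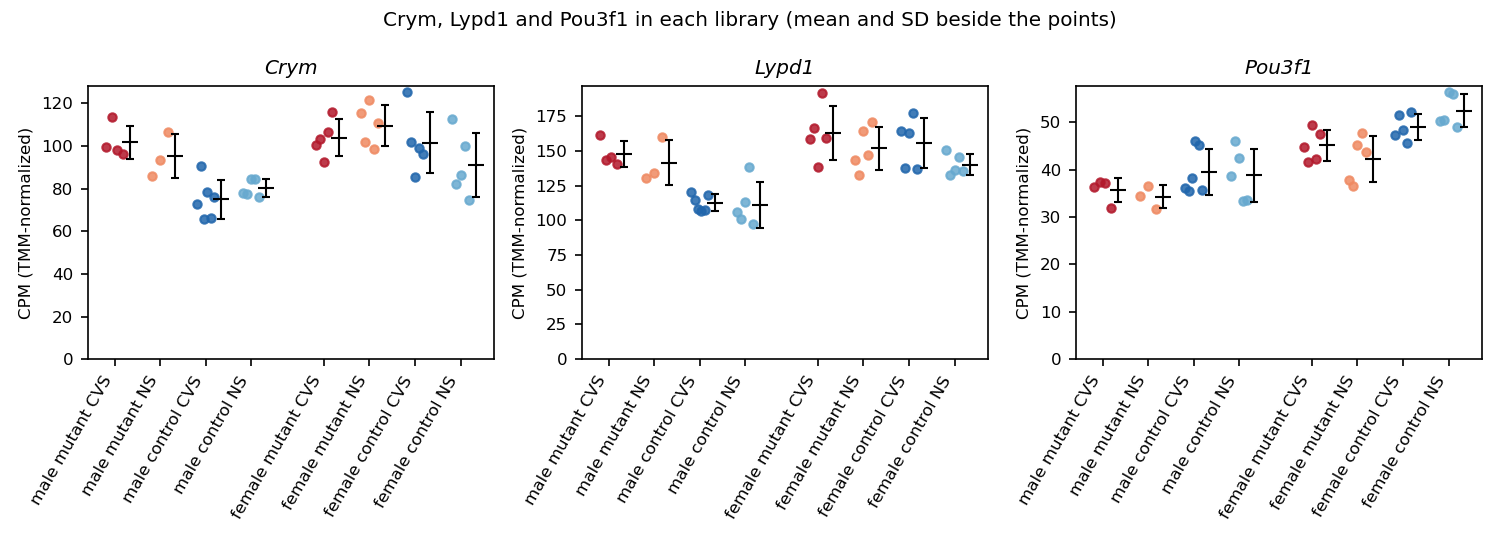
CPM of Crym, Lypd1 and Pou3f1 in each of the 38 libraries, by group, with the mean and SD beside the points (n = 3 to 6). Among stressed males, Crym averaged 102 CPM in mutants and 74.9 CPM in controls without overlap, and among unstressed females Pou3f1 averaged 42.2 CPM in mutants and 52.4 CPM in controls without overlap.

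The other layer 5 genes did not pass for genotype. Fezf2 and Bcl11b, transcription factors that specify neurons projecting below the cortex, differed by 0.100 ± 0.052, adjusted p 0.494 and 0.068 ± 0.051, adjusted p 0.699. Etv1, an ETS factor of layer 5, stood at 95.7, 94.3 and 104 CPM in unstressed male mutants, against 80.6, 92.1, 84.1, 89.3 and 73.4 in unstressed male controls. Those groups did not overlap, as for Crym and Tbr1, 3 of 32 genes against 3.8% of all genes, and none of the 3 passed there (0.0174% of all genes did). Without the libraries with high Cdhr1, replicate 1 is the only mutant of that group, and the differences were 0.19 for Etv1, 0.097 for Crym and 0.071 for Tbr1 (adjusted p 0.894, 0.964 and 0.964), against 0.22, 0.25 and 0.13 with them. Pcp4, a calmodulin-binding peptide, was at -0.12 ± 0.081, adjusted p 0.653, Deptor, an inhibitor of mTOR, at -0.025 ± 0.037, adjusted p 0.892, and Tshz2, a zinc finger factor, at 0.061 ± 0.053, adjusted p 0.753.

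None of the 12 genes of layer 6 and 6b passed for genotype, while 9 estimates were positive, 3 were negative and the median was 0.098. Among all genes 49.9% were positive. Many of these layer 6 genes varied together between animals, so their signs are not separate observations. Foxp2, a forkhead factor of layer 6 neurons, had the smallest p of the group, at 0.31 ± 0.096, unadjusted p 0.00283, adjusted p 0.131. Unstressed female mutants had 10.6, 12.4, 13.3, 9.04 and 10.7 CPM of Foxp2, against 10.4, 8.19, 9.07, 8.01 and 5.20 in unstressed female controls, with overlap. Stressed male mutants had 9.30, 9.85, 8.24 and 15.4 CPM, against 6.43 at the lowest, 8.08 at the median and 8.95 at the highest in stressed male controls. Mutant replicate 4 held the highest value of all libraries. The Foxp2 difference in stressed males was 0.43, and it ranged from 0.21 to 0.54 when 1 library was left out.

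Rprm, which encodes reprimo, an inhibitor of the cell cycle found in layer 6 neurons, differed by 0.29 ± 0.093, unadjusted p 0.00395, adjusted p 0.154, and Tle4, a co-repressor of corticothalamic neurons, by 0.11 ± 0.055, adjusted p 0.424. Estimates for Hs3st4, a heparan sulfate sulfotransferase, and Syt6, a synaptotagmin, were 0.16 ± 0.09, adjusted p 0.55 and 0.13 ± 0.11, adjusted p 0.732. Nxph4 had 0.33 ± 0.21, adjusted p 0.617 at these low counts, and Sulf1, an extracellular sulfatase, 0.082 ± 0.076, adjusted p 0.78. Foxp1 (0.023), a second forkhead factor, Tbr1 (0.042), Sox5 (-0.053), a factor that sets deep-layer fate, Sema3e (-0.072), an axon guidance ligand, and Cplx3 (-0.021), a complexin of layer 6b, had adjusted p values of 0.822, 0.576, 0.61, 0.582 and 0.954 in that order. Cplx3 stood at 9.87, 11.3, 9.15, 12.9 and 9.49 CPM in stressed female mutants, against 8.83, 7.94, 9.10, 8.99 and 8.94 in stressed female controls, without overlap and at 0.27 ± 0.11, adjusted p 0.615.

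Of the transporters, Slc17a7 had 1789, 1849, 1824, 1823 and 1845 CPM in stressed female mutants, against 2038, 2089, 1863, 1921 and 1965 in stressed female controls. Every mutant was below every control, and the difference of -0.11 ± 0.034, unadjusted p 0.00162, adjusted p 0.484 did not pass. In stressed females 0.0243% of 16435 genes passed, none of them among the 32, and 2 of the 32 genes had groups without overlap against 1.1% of all genes. Slc17a6, the vesicular glutamate transporter used mainly below the cortex, stood at 7.32, 8.24, 7.31 and 9.71 CPM in stressed male mutants, against 4.42 at the lowest, 6.92 at the median and 7.85 at the highest in stressed male controls, and over all libraries differed by 0.14 ± 0.069, adjusted p 0.449. Slc30a3 was at 0.017 ± 0.026, adjusted p 0.899. Slc17a7 also had the smallest p of the 32 genes for a sex difference of the genotype effect, at -0.11 ± 0.035, unadjusted p 0.00279, adjusted p 0.421, where 0.00566% of all genes and none of the 32 passed.

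Stress left no call among the 32 genes. Averaged over sex and genotype, 0.017% of 17671 genes passed for CVS minus NS, and of the 32 genes 1 had an unadjusted p under 0.05, against 9.37% of all genes. That gene was Cux2, at 0.082 ± 0.036, unadjusted p 0.0316, adjusted p 0.494. In females Cux2 stood at 177, 167, 179, 186 and 154 CPM in mutant CVS, against 174, 149.6, 149.9, 156 and 161 in mutant NS. Female controls had 152, 169.9, 188, 184 and 171 CPM in CVS, against 151, 168, 152, 182 and 185 in NS. Males had 142, 144, 152 and 119 CPM in mutant CVS, against 144, 131 and 129 in mutant NS. Male controls had 137 at the lowest, 149.6 at the median and 161 at the highest CPM in CVS, against 135, 153, 122, 139 and 152 in NS. The CVS and NS groups overlapped in all 4 pairs.

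By layer, the smallest p values for stress belonged to Cux2 in the upper layers, Tshz2 in layer 5 (0.10 ± 0.053, adjusted p 0.563), Cplx3 in layer 6b (0.098 ± 0.062, adjusted p 0.661) and Slc17a7 among the transporters (0.025 ± 0.017, adjusted p 0.701). Tshz2 had 29.8, 31.1, 29.0 and 36.3 CPM in stressed male mutants, against 28.8, 27.2 and 28.4 in unstressed male mutants, the only one of the 32 whose groups did not overlap there (3.76% of all genes did not). In the other 3 stress comparisons none of the 32 had groups without overlap, against 0.837% of all genes in male controls, 1.46% in female controls and 1.5% in female mutants. No gene of the 32 passed for stress within a sex and genotype, where 0.0116% of all genes passed among male controls and 0% in the other 3 comparisons, or for the interaction of genotype and stress, where no gene of the table passed. Unadjusted p values under 0.05 for stress were found for Slc30a3 in male controls (7.39% of all genes), for none of the 32 in male mutants (3.38%), for Rspo1 and Slc17a7 in female controls (8.72%) and for Wfs1, Etv1 and Foxp2 in female mutants (7.91%). DESeq2 and limma voom also called none of the 32 for stress. Unadjusted p values for the interaction averaged over sexes were under 0.05 for Etv1 alone among the 32 (4.96% of all genes), at -0.15 ± 0.069, unadjusted p 0.0388, adjusted p 0.931.

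Between animals of the same group, deep-layer genes varied together and many upper-layer genes varied inversely to them. With each group's mean removed, log2 CPM (pseudocount 0.5 CPM) of the 38 libraries gave 496 pairs of genes, of which 125 had an adjusted permutation p under 0.05 (100000 permutations within groups, smallest possible p 1e-05, Benjamini-Hochberg over the 496), 77 of them positive and 48 negative. Each pair shares its libraries and their scaling. These permutation tests were added after the data were seen. The mean correlation was 0.049 over the pairs of the 32 genes and 0.0022 over pairs of all tested genes. Positive and negative pairs cancel in such a mean. How many pairs of all tested genes pass this threshold, or the bounds of 0.5 below, was not counted. The counts of pairs are therefore not shown to be particular to these genes. Between upper-layer and layer 6 genes the median r was -0.21, and 25 of 108 pairs were below -0.5 and none above 0.5. Within the upper layers the median was 0.33, within layer 6 and 6b 0.27, and between layer 5 and layer 6 genes 0.22, where 26 of 96 pairs exceeded 0.5.

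**Figure D3:**
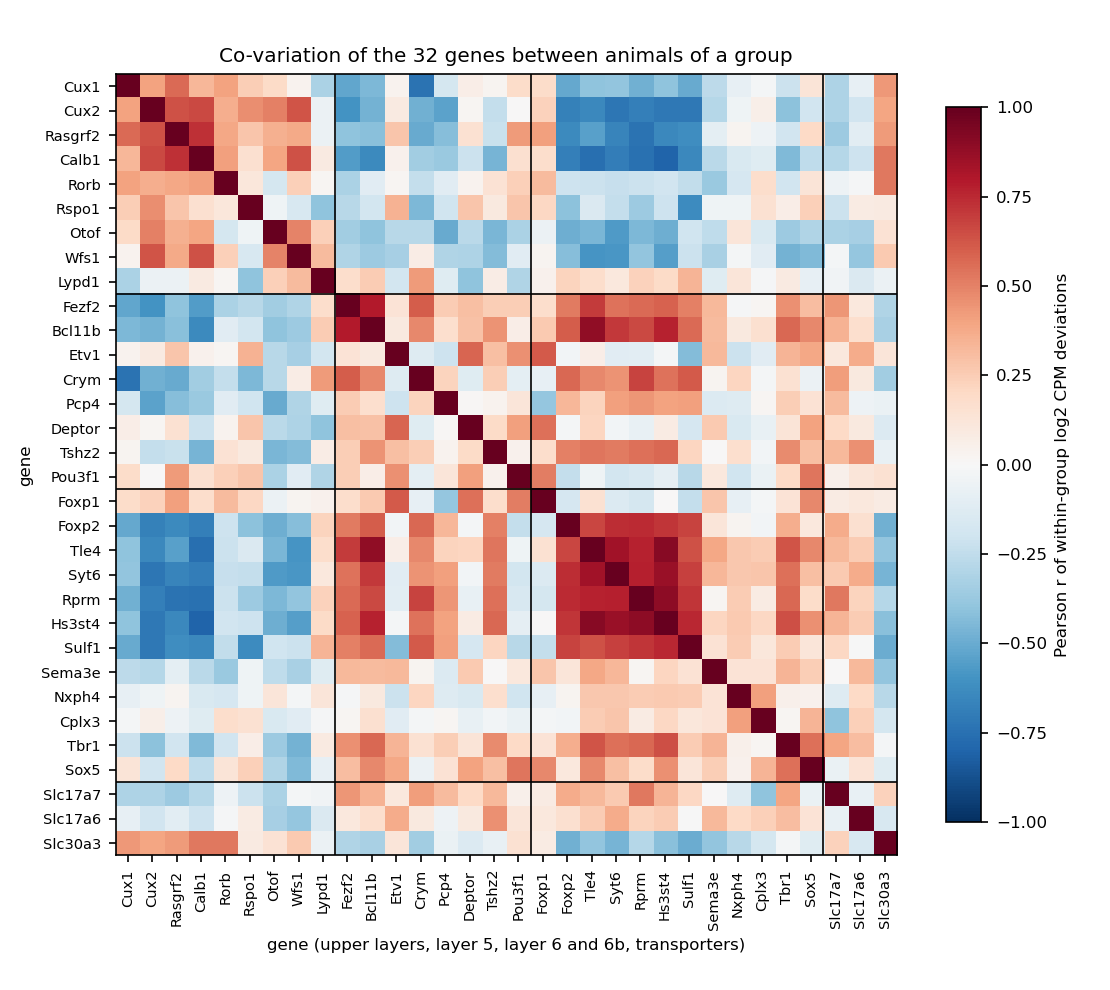
Pearson r of within-group deviations of log2 CPM over 38 libraries for every pair of the 32 genes, with lines between the layer groups. Tle4, Syt6, Rprm and Hs3st4 form a red block together with Fezf2 and Bcl11b, and are blue against Cux2, Rasgrf2 and Calb1, while Lypd1, Nxph4 and Cplx3 are pale in nearly every row.

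The tightest pairs were genes of corticothalamic neurons. Tle4 and Hs3st4 had Pearson r 0.91 (permutation p 1e-05, adjusted 0.00038), Spearman rho 0.89 (permutation p 1e-05, adjusted 0.00045). Within sexes their r was 0.88 in the males and 0.95 in the females, and without the 2 libraries farthest from the median it was 0.88. Rprm and Hs3st4 had Pearson r 0.90 (permutation p 1e-05, adjusted 0.00038), Spearman rho 0.87 (permutation p 1e-05, adjusted 0.00045), with 0.91 in the males and 0.88 in the females and 0.85 without the 2 farthest libraries. Bcl11b of layer 5 and Tle4 of layer 6 had Pearson r 0.88 (permutation p 1e-05, adjusted 0.00038), Spearman rho 0.87 (permutation p 1e-05, adjusted 0.00045), with 0.84 in the males and 0.92 in the females and 0.87 without the 2 farthest. For Fezf2 and Bcl11b the values were Pearson r 0.80 (permutation p 1e-05, adjusted 0.00038), Spearman rho 0.80 (permutation p 1e-05, adjusted 0.00045), with 0.83 in the males and 0.77 in the females and 0.80 without the 2 farthest. The females hold none of the libraries with high Cdhr1.

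Many upper-layer genes, but not all, ran the other way. Lypd1 with Bcl11b had r -0.039 in the males and 0.51 in the females, and Rorb with Hs3st4 had -0.32 and -0.082. Calb1 and Hs3st4 had Pearson r -0.80 (permutation p 2e-05, adjusted 0.00058), Spearman rho -0.75 (permutation p 2e-05, adjusted 0.00058), with -0.88 in the males and -0.72 in the females and -0.71 without the 2 farthest libraries. Calb1 and Rasgrf2 varied together, at Pearson r 0.73 (permutation p 5e-05, adjusted 0.0011), Spearman rho 0.69 (permutation p 9e-05, adjusted 0.0017), with 0.84 in the males and 0.69 in the females and 0.69 without the 2 farthest. Male mutant CVS replicate 4 lay farthest to the deep side, with layer 6 and 6b genes on average 0.36 above and upper-layer genes 0.20 below its group mean on the log2 scale. Replicate 3 of the same group lay on the other side, with layer 6 genes 0.27 below and upper-layer genes 0.11 above. In Hs3st4 these libraries had 66.9 and 31.4 CPM, and in Calb1 107 and 155 CPM.

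**Figure D4:**
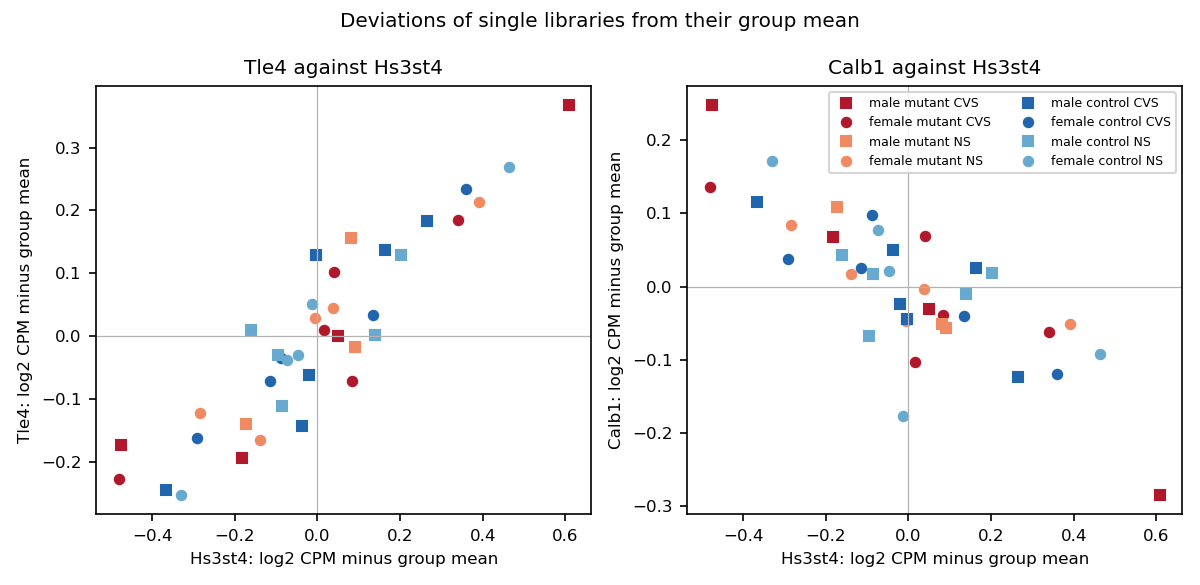
Deviations of single libraries from their group mean on the log2 CPM scale, Tle4 against Hs3st4 on the left (r 0.91) and Calb1 against Hs3st4 on the right (r -0.80), 38 libraries by sex, genotype and stress. Male mutant CVS replicate 4, with 66.9 CPM of Hs3st4, is the square at the far right of both panels.

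Because Fezf2, Bcl11b, Rprm and Hs3st4 moved together, the 250 bases before their start sites are shown, from RefSeq with build GRCm38.p6. Capitals mark matches on either strand to a GC box (GGGCGG or CCGCCC), a T-box core (AGGTGT or ACACCT) or a Sox core (AACAAT or ATTGTT), motifs whose letters do not overlap each other. The regions are chr14:12345866-12346115 on the minus strand, chr12:108003415-108003664 on the minus strand, chr2:54085553-54085802 on the minus strand and chr7:123982578-123982827 on the plus strand.
Fezf2: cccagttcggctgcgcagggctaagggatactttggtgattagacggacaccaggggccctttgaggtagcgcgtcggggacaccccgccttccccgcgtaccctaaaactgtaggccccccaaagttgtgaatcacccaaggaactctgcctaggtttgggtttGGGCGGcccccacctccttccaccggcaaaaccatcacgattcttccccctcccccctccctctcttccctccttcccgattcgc
Bcl11b: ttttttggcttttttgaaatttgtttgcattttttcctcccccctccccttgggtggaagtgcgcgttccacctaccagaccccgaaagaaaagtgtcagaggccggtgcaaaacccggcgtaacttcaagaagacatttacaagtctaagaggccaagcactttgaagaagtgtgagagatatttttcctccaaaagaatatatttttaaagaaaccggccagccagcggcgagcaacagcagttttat
Rprm: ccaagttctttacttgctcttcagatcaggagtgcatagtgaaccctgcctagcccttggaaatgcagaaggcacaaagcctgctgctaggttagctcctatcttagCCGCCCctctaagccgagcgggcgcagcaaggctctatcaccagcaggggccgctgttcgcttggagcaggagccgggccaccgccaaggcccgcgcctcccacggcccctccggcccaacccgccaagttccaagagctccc
Hs3st4: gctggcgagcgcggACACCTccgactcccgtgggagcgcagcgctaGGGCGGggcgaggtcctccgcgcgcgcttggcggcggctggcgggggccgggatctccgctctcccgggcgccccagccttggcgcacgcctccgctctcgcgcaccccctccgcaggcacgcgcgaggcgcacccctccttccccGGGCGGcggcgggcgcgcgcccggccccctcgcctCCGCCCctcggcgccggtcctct
Fezf2 held a GC box 85 bases before the start and Rprm 1 at 143 bases, Hs3st4 held 3 GC boxes (204, 58 and 23 bases before) and a T-box core at 236, and Bcl11b held no match. A GC box was found in 32.7%, a T-box core in 11.8% and a Sox core in 9.42% of the 32851 promoters of the same length. Promoters were listed for 24 of the 32 genes. Of these genes 15, 4 and 5, in that order, had a match in at least 1 listed promoter. These counts are per gene, so they are unlike the shares per promoter. A match describes letters only.

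Crym followed the deep side in part. It had Pearson r 0.67 (permutation p 8e-05, adjusted 0.0013), Spearman rho 0.66 (permutation p 9e-05, adjusted 0.0017) with Rprm, with 0.35 in the males and 0.91 in the females and 0.58 without the 2 farthest libraries, and Pearson r -0.73 (permutation p 9e-05, adjusted 0.0014), Spearman rho -0.67 (permutation p 0.00021, adjusted 0.0029) with Cux1, with -0.66 in the males and -0.77 in the females and -0.64 without the 2 farthest. Lypd1 had 1 partner of 31 past an adjusted p of 0.05, which was Crym, and Pou3f1 had 4, led by Sox5 (0.54) and Foxp1 (0.52). With the mean of Tle4, Syt6, Rprm and Hs3st4 per library added to the model, a choice made after seeing the data, the pooled genotype differences were 0.21 for Lypd1 (adjusted p 0.0391), 0.19 for Crym (adjusted p 0.0375) and -0.18 for Pou3f1 (adjusted p 0.0576). In the same model Crym in stressed males was at 0.40 (adjusted p 0.104) and Pou3f1 in unstressed females at -0.31 (adjusted p 0.0622). The genes of that mean belong to the same set and had positive pooled genotype estimates themselves. The model therefore cannot separate layer sampling from genotype, whether a call was kept or lost.

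Markers of other cells and regions were read beside these results. Drd1, a dopamine receptor of striatum and of layer 6, correlated with Rprm at r 0.85 and with Hs3st4 at 0.83 over 38 libraries (rho 0.83 and 0.80, permutation p 1e-05, 1e-05, 1e-05 and 2e-05, adjusted over 1216 pairs 0.002 and 0.0049), with 0.87 and 0.84 in males, 0.84 and 0.82 in females, and 0.82 and 0.79 without the 2 farthest libraries. The summed striatal markers Drd1, Drd2, Adora2a, Ppp1r1b, Rgs9 and Pde10a ranged over 131 to 166, 142 to 152, 148 to 166 and 125 to 154 CPM in male mutant CVS, mutant NS, control CVS and control NS. In females the sum of these 6 ranged over 143 to 157, 131 to 149.2, 145 to 164 and 149.5 to 158 CPM in the same order, so that unstressed female mutants lay below unstressed female controls. None of the 6 passed for pooled genotype. The 3 oligodendrocyte markers Mog, Mag and Mobp had lower pooled estimates in mutants, at -0.24 ± 0.068, -0.19 ± 0.065 and -0.17 ± 0.084 on the log2 scale, with an unadjusted p under 0.05 for each and none past the adjusted threshold (adjusted p 0.0663, 0.209 and 0.443). Their sum ranged over 128 to 255, 136 to 248, 176 to 273 and 195 to 256 CPM in male mutant CVS, mutant NS, control CVS and control NS, and over 139.5 to 181, 132 to 179.8, 138 to 184 and 158 to 189 CPM in the same female groups. Sst, the peptide of somatostatin neurons, passed for pooled genotype at 0.19 ± 0.034 (adjusted p 0.00143; 1 of 6 GABAergic markers), and Gnb4, a G protein subunit, at 0.15 ± 0.039 (adjusted p 0.0466; 1 of 3 claustrum markers). Both were higher in mutants. Without the 3 libraries with high Cdhr1 their adjusted p values were 0.0411 for Sst and 0.0878 for Gnb4, and without male mutant CVS replicate 1 they were 0.000401 and 0.0612 in that order. Eomes and Tbx21 of the olfactory bulb were at 0 in 21 and 14 of 38 libraries, and no glial or striatal marker was at 0. The part of these markers in the results was not tested.

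Spread between animals of a group was largest among layer 6 genes. The biological coefficient of variation (BCV), the spread left after counting noise, had a median of 0.102 over the 32 genes and 0.0906 over all 17671. Nxph4 had the highest BCV (0.386) at its low counts, then Syt6 (0.215), Rprm (0.193) and Foxp2 (0.189). Among genes in the same abundance decile, Rprm stood at the 99.5th and Hs3st4 at the 99.4th percentile of BCV, against the 18.1st for Slc17a7 and the 35.1st for Foxp1. Syt6 ranged from 7.92 to 24.8 CPM over the 38 libraries, 3.14-fold, and Slc17a7 from 1712 to 2089 CPM, 1.22-fold. Male mutant CVS replicates had 11.5, 15.5, 11.1 and 24.8 CPM of Syt6, and male control CVS replicates 9.24 at the lowest, 13.2 at the median and 18.7 at the highest.

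**Figure D5:**
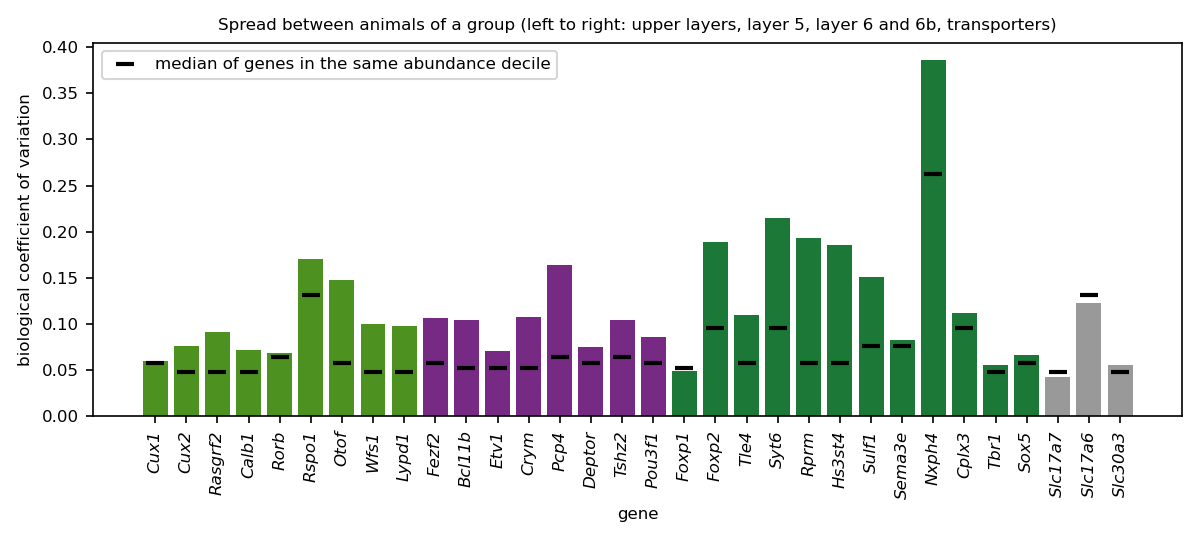
Biological coefficient of variation of each of the 32 genes (bars) in the 38-library fit, with black dashes for the median of all genes in the same abundance decile. Bars of Rprm (0.193) and Hs3st4 (0.186) stand more than 3 times above their dash (0.057), and the bar of Slc17a7 (0.0423) lies below its dash (0.0479).

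Further layer genes were counted in lists made for this comparison. Of 14 other upper-layer genes, 6 had positive and 8 negative pooled genotype estimates (median -0.015), and 1 was higher and 1 lower past the threshold, which 1.09% of all genes passed. These were Adamts2, a procollagen peptidase, at 0.40 ± 0.064, adjusted p 0.000175, and Stard8, a regulator of small GTPases, at -0.19 ± 0.049, adjusted p 0.0419. Adamts2 had 11.8 ± 0.772 CPM in unstressed female mutants and 8.59 ± 1.51 CPM in unstressed female controls (n = 5 each). Of 13 other layer 5 genes tested, 10 estimates were positive (median 0.061) and none passed. Of 13 other layer 6 genes tested, 11 were positive (median 0.078) and none passed, the nearest being Zfpm2, a cofactor of GATA factors (0.26 ± 0.072, adjusted p 0.0717), and Ntsr1, the neurotensin receptor of corticothalamic neurons (0.41 ± 0.12, adjusted p 0.088). Among all genes 49.9% of estimates were positive. Of 9 genes of thyroid hormone transport, metabolism and response, listed because Crym binds that hormone, 1 passed: Thra, a thyroid hormone receptor, at 0.088 ± 0.024, adjusted p 0.0495. The list as a whole did not rise, with 4 positive and 5 negative estimates (median -0.055). At an unadjusted p of 0.05, 3 were higher and 4 lower, against 11.2% of all genes. Without the 3 libraries with high Cdhr1, Adamts2 passed (0.38, adjusted p 0.0073), while Stard8 (-0.17, adjusted p 0.294) and Thra (0.057, adjusted p 0.475) did not. Without male mutant CVS replicate 1 their adjusted p values were 0.000524 for Adamts2, 0.0313 for Stard8 and 0.0717 for Thra. None of the genes in these lists passed for stress over all libraries, where 0.017% of all genes did.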

How the data were processed

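RNA of medial prefrontal cortex from 38 mice, cut from 1 mm coronal sections, was sequenced from 400 ng per animal with a directional kit, per the labels' protocols. The authors deposited raw counts per gene for all 38 libraries in 1 table. Per the submitters' processing notes, fastp 0.23.2, STAR 2.7.10b, featureCounts and build GRCm39 were used; neither the annotation release nor the strand setting is given in the sources used here. Total counts were 17.6 to 27.5 M (1000000) per library.

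From these counts, edgeR 4.0.16 (R 4.3.3; TMM scaling, low-count filter of 10 counts, robust quasi-likelihood fit) tested 4-group models per sex and an 8-group model of all libraries, with Benjamini-Hochberg adjustment over all genes tested and a threshold of 0.05. Scripts were tested on simulated data. The targeted gene and 2 further markers are not reported here. Symbols (52029 of 57010 IDs), lengths and overlaps came from a GRCm38 annotation. Groups were taken from the labels. The 32 genes, the other lists and the tests were chosen with earlier results of these data known. Library values are given for genes past the threshold, for the smallest p per layer group in the pooled genotype and stress comparisons, and for the largest spread; other values shown were picked after they were seen. DESeq2 1.42.0, limma 3.58.1 voom, other scaling, filtering and samples, and, added after the data were seen, a layer 6 covariate, permutation p values of correlations and further runs without doubted male libraries were the alternatives. No pair of libraries of a group agreed within sampling noise (74 pairs, chi-square per degree of freedom 3.67 to 16.6).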

Additional observations from a re-analysis of the deposited data

Results flagged for a closer look

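In 7 of 224 gene and group combinations with 4 or more libraries, 1 library stood far from the rest of its group; chance alone marks about 1 in 20. Cplx3 was low in female mutant NS replicate 1, at 6.974 CPM against 9.34 to 10.1 in the others, and in female control CVS replicate 2, at 7.94 CPM against 8.83 to 9.10. Nxph4 was high in male control CVS replicate 2, at 2.524 CPM against 0.357 to 1.09, a gene with few counts. Cux1 was high in male mutant CVS replicate 1, at 60.2 CPM against 57.0 to 57.5. Pcp4 was high in male control NS replicate 3, at 33.89 CPM against 26.7 to 28.48. Rspo1 was low in female control NS replicate 2, at 5.441 CPM against 6.45 to 6.77, and Sema3e was high in female control CVS replicate 5, at 24.07 CPM against 19.2 to 20.5.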

How the results depend on the processing

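Of the counts of genes called among the 32, those for stress, for the interactions and for sex differences were 0 in every alternative run. For genotype in unstressed females the count was 1 in the report, where 21 genes of the whole table passed. It was 3 without the low-count filter (Wfs1, Pou3f1 and Foxp2), where 118 of the whole table passed. It was 0 in the 8-group model (7 of the whole table) and 0 with the layer 6 covariate (12), which was added after seeing the data. For genotype in stressed males the count was 1, where 9 genes of the whole table passed. With DESeq2 it was 2 (Lypd1 and Crym), where 27 of the whole table passed. It was 0 in the 8-group model (12 of the whole table) and 0 with the covariate (3). The call was also lost without the 3 libraries with high Cdhr1, a run that leaves 1 unstressed male mutant library. For pooled genotype the count was 3, where 193 genes of the whole table passed. It was 1 in females only (96 of the whole table). All 3 calls were lost without those 3 libraries, which also leaves fewer samples. DESeq2 also called Wfs1 for pooled genotype (adjusted p 0.0266). Leaving out 1 library at a time gave 0 to 2 in stressed males, 0 to 1 in unstressed males, 0 to 1 in unstressed females and 2 to 3 for pooled genotype. Signs turned for Slc17a7 under pooled stress in males only (-0.006931), and for genotype in stressed females for Crym with the covariate (-0.04784), without female control CVS replicate 3 (-0.0271) or female mutant CVS replicate 5 (-0.01402; range leaving out 1 library -0.0271 to 0.1147), and for Lypd1 without female mutant CVS replicate 4 (-0.003411; range -0.003411 to 0.1134). None of these was called. Of the single-gene values, 329 kept direction and side of the threshold, 18 lost a call, 4 gained one and 2 turned, outside the runs leaving out 1 library. The causes were not tested. No paired analysis was possible because the labels carry animal codes and no shared replicate numbers. At these depths Nxph4, with 4 to 53 counts per library, was the gene limited most by counting.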

Other observations

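For the 3 genes called for genotype, levels in unstressed controls of both sexes are given without a test, since sex and animal series cannot be told apart. Unstressed female controls averaged 91.2 ± 15.1 CPM of Crym, 140.3 ± 7.82 CPM of Lypd1 and 52.4 ± 3.48 CPM of Pou3f1 (SD, n = 5), and unstressed male controls 80.1 ± 4.22, 111 ± 16.5 and 38.8 ± 5.58 CPM (SD, n = 5).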
